A study of Mus musculus with 6 samples.

Results

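The core circadian clock genes of skeletal muscle were examined in mice that lack *Tarsl2*, the gene of a threonyl-tRNA synthetase-like protein. The genes were *Arntl* (which encodes BMAL1), *Clock*, *Per1*, *Per2*, *Per3*, *Cry1*, *Cry2*, *Nr1d1* (REV-ERB alpha), *Nr1d2* (REV-ERB beta) and *Dbp*, taken by name from the count table. All 10 were found among its 53084 genes, and all 10 were among the 15075 genes with enough counts to be tested. Muscle RNA was sequenced from 3 *Tarsl2*+/+ mice (numbers 583, 584 and 595) and 3 *Tarsl2*-/- mice (588, 591 and 589). Every mouse was a male C57BL/6 animal of 6 weeks, raised under specific-pathogen-free conditions on standard chow with water. The *Tarsl2*-/- mice were homozygous for a CRISPR/Cas9 deletion around exon 3 in every tissue, and how many founders the mice descended from is not given in the sources used here. Neither are the muscle taken and the hour of day at which it was taken. The part of sampling time in the values was not tested.

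The libraries held 16176591 to 20123767 counts. *Tarsl2* itself was at 26.7, 32.1 and 24.4 CPM (the count relative to library size, scaled by the trimmed mean of M-values, TMM) in the *Tarsl2*+/+ mice and at 2.23, 1.80 and 1.87 CPM in the *Tarsl2*-/- mice, as labelled (log2 fold change −3.81, SE 0.16, adjusted p = 6.45e-07). Here and throughout, a gene was called where its adjusted p was under 0.05 in edgeR's quasi-likelihood test over all tested genes. The labels' protocol speaks of retina although the tissue is given as muscle. None of 10 retinal marker genes had over 4 counts in any library, *Pde6b*, *Crx* and *Nrl* were at 0 in all 6, and muscle markers such as *Acta1* were abundant.

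The circadian clock is a feedback loop of transcription that runs in nearly every cell, muscle fibres included. BMAL1 and CLOCK bind E-box sequences as a pair and drive the *Per* and *Cry* genes, whose proteins return to block that pair. They also drive *Nr1d1*, *Nr1d2* and *Dbp*; REV-ERB proteins repress *Arntl*, and ROR receptors activate it through the same elements. The transcripts therefore peak at different hours, with *Arntl* roughly opposite in phase to *Nr1d1* and *Dbp*.

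Promoter windows from 250 bases before to 50 bases after the start site (RefSeq, build GRCm38.p6) were found for 9 of the 10 genes, 13 windows in all, and *Per2* had none in the table. The windows of the 4 genes whose genotypes did not overlap in level are shown, written 5′ to 3′ on the gene's own strand, with matches to clock motifs in capitals. They lie at chr11:69098699-69098998 (plus strand) for *Per1*, chr11:98775328-98775627 (minus strand) for *Nr1d1*, chr4:151044616-151044915 (minus strand) for *Per3* and chr7:45704997-45705296 (plus strand) for *Dbp*.
Per1: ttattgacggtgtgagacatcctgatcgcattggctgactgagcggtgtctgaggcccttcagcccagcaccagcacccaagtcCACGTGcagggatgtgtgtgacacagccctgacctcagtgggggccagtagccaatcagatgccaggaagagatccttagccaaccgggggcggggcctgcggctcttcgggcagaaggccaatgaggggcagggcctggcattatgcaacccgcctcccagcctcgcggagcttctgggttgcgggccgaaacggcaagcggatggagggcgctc
Nr1d1: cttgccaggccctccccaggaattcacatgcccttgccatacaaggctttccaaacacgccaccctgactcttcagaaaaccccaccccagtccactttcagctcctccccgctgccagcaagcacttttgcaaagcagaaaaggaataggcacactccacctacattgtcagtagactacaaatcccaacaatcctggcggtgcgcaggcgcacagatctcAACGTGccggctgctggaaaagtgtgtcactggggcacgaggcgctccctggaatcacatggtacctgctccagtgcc
Per3: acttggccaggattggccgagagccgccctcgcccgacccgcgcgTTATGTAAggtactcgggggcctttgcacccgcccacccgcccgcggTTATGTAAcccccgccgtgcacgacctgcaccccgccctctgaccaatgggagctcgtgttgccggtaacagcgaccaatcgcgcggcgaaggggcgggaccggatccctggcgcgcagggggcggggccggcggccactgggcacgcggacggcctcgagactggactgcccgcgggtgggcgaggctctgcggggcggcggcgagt
Dbp: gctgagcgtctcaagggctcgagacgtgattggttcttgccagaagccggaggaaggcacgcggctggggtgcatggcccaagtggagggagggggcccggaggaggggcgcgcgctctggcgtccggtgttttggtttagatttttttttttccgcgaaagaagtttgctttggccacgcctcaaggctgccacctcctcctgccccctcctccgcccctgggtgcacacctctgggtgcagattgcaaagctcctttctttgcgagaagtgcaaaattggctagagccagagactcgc
The capitals mark an E-box (CACGTG) that begins 166 bases before the *Per1* start, an E′-box (CACGTT, read on the opposite strand as AACGTG) 28 bases before the *Nr1d1* start, and D-boxes (TTATGTAA), the sites of DBP and its relatives, 205 and 158 bases before the *Per3* start. The *Dbp* window held none of the letters searched, and neither did the second *Per1* window. Both strands were searched, also for the D-box TTACGTAA, the REV-ERB and ROR element (TAGGTCA or TGGGTCA) and the cyclic AMP element (TGACGTCA). Among the other clock genes, *Cry1* held an E-box at −60 and an E′-box at −79, *Cry2* an E′-box at −166, and *Arntl* a REV-ERB and ROR element 31 bases into its transcript. Over all 32851 windows of the same length, the E-box was found in 7.15%, the E′-box in 4.68%, either D-box in 1.06%, the REV-ERB and ROR element in 6.45% and the cyclic AMP element in 1.79%. No clock gene window held the cyclic AMP element. A match is a run of letters and was not shown to be a bound site.

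*Per1* rose and *Nr1d1* fell in *Tarsl2*-/- muscle, and the other 8 genes were not called. The calls were thus 2 of 10 genes, against 2.27% of all tested genes, with 1 of 10 higher against 0.896% and 1 of 10 lower against 1.37%. An unadjusted p under 0.05 was reached by 5 of the 10 genes, against 19.8% of all tested genes. The 3 mice of each genotype did not overlap in CPM for 4 of the 10 genes (*Per1* and *Per3* higher, *Nr1d1* and *Dbp* lower), against 24.6% of all tested genes. DESeq2 called the same 2 genes, where it called 4.43% of the genes it tested. The log2 fold change was above 0 for both activators, and above 0 for 5 and below 0 for 3 of the 8 genes that the activators drive. The median over the 10 genes was 0.10, beside 0.00 over all tested genes.

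**Figure D1:**
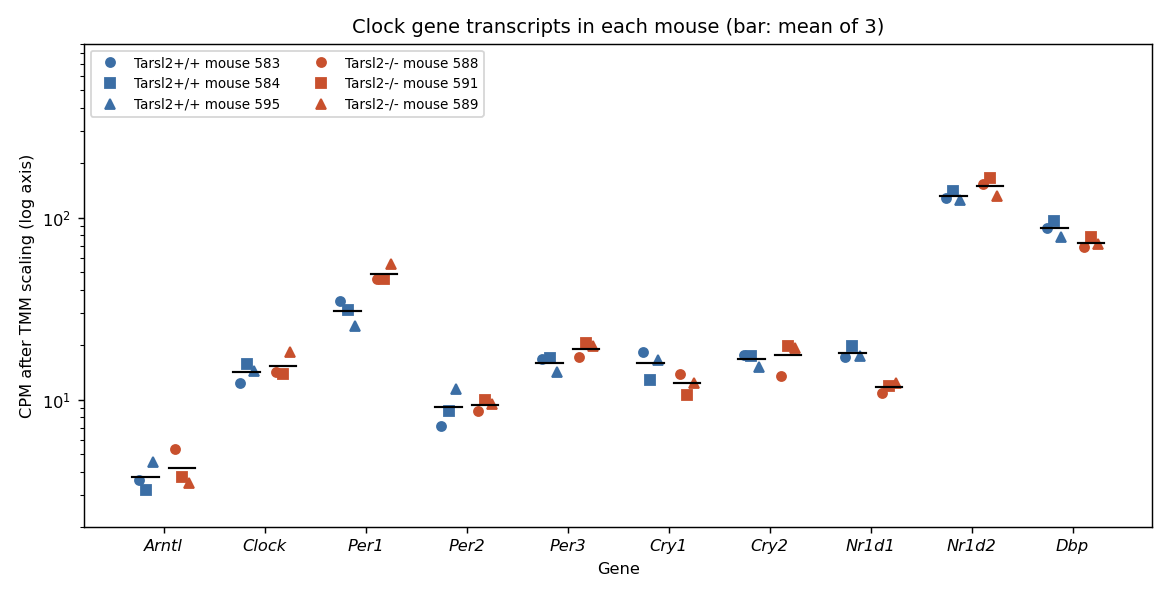
CPM after TMM scaling (log axis) of the 10 clock genes in each mouse, with 3 *Tarsl2*+/+ mice in blue and 3 *Tarsl2*-/- mice in orange; symbols mark single mice and bars the mean of 3. The genotypes stand apart for *Per1* (25.5 to 34.8 against 46.2 to 55.4 CPM), *Nr1d1* (17.1 to 19.8 against 10.9 to 12.3 CPM), *Per3* and *Dbp*, and overlap for the other 6 genes.

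Neither activator was called. *Arntl*, which encodes BMAL1 (chr7:113207465-113314126 in the table's coordinates), was at 3.62, 3.19 and 4.51 CPM in the *Tarsl2*+/+ mice and 5.35, 3.74 and 3.49 CPM in the *Tarsl2*-/- mice. The ranges overlapped, and the highest value was that of *Tarsl2*-/- mouse 588. The log2 fold change was 0.15 (SE 0.22, adjusted p = 0.752). Only 56 to 96 reads per library lay behind these values, and the 95% interval ran from −0.33 to 0.63. *Clock*, the partner of BMAL1 (chr5:76209868-76304792), was at 12.3, 15.7 and 14.3 CPM against 14.2, 13.8 and 18.2 CPM, ranges that again overlapped, with a log2 fold change of 0.12 (SE 0.14, adjusted p = 0.680, interval −0.18 to 0.42).

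Of the period genes, which encode the repressors that build up through the day, *Per1* was called. *Per1* (chr11:69095217-69109960) was at 34.8, 31.2 and 25.5 CPM in the *Tarsl2*+/+ mice (30.5 ± 4.71, SD, n = 3) and at 46.2, 46.2 and 55.4 CPM in the *Tarsl2*-/- mice (49.3 ± 5.30, SD, n = 3). Every *Tarsl2*-/- mouse lay above every *Tarsl2*+/+ mouse, and the mean was 61.6% higher by the fitted fold change. The log2 fold change was 0.69 (SE 0.12, adjusted p = 0.0174, interval 0.42 to 0.96), and *Per1* stood 115th of all tested genes by p. The call was lost without *Tarsl2*+/+ mouse 595 (0.58, adjusted p = 0.0563) and without *Tarsl2*-/- mouse 589 (0.60, adjusted p = 0.0605). *Per1* is known to respond to glucocorticoids and cyclic AMP as well as to BMAL1 and CLOCK.

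*Per2*, its close relative (chr1:91415982-91459324), was at 7.13, 8.66 and 11.4 CPM against 8.64, 9.91 and 9.42 CPM. The *Tarsl2*-/- mice lay inside the range of the *Tarsl2*+/+ mice, with a log2 fold change of 0.04 (SE 0.17, adjusted p = 0.937, interval −0.33 to 0.40). *Per3* (chr4:151003652-151044665) was at 16.7, 16.8 and 14.2 CPM against 17.2, 20.4 and 19.6 CPM. The ranges of *Per3* did not overlap, by a narrow margin between mice 584 and 588, and its log2 fold change of 0.26 (SE 0.11, adjusted p = 0.219, interval 0.02 to 0.51) was not called. *Per3* lies whole inside the span of *Camta1* on the same strand, whose log2 fold change was 0.11 (adjusted p = 0.675).

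The cryptochromes, partners of the PER proteins in blocking BMAL1 and CLOCK, were not called. *Cry1* (chr10:85131700-85185064) was at 18.2, 12.8 and 16.5 CPM in the *Tarsl2*+/+ mice and 13.8, 10.5 and 12.4 CPM in the *Tarsl2*-/- mice. The ranges met only through *Tarsl2*+/+ mouse 584, and the log2 fold change was −0.37 (SE 0.15, adjusted p = 0.200, interval −0.70 to −0.04). *Cry2* (chr2:92403646-92434043) was at 17.7, 17.3 and 15.1 CPM against 13.5, 19.8 and 19.2 CPM, so that *Tarsl2*-/- mice held both the lowest and the highest value. Its log2 fold change was 0.07 (SE 0.14, adjusted p = 0.835, interval −0.25 to 0.39).

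The REV-ERB genes encode nuclear receptors that bind heme and repress *Arntl*. *Nr1d1* (chr11:98767932-98775333) was at 17.1, 19.8 and 17.3 CPM in the *Tarsl2*+/+ mice (18.1 ± 1.53, SD, n = 3) and at 10.9, 11.9 and 12.3 CPM in the *Tarsl2*-/- mice (11.7 ± 0.696, SD, n = 3). Every *Tarsl2*-/- mouse lay below every *Tarsl2*+/+ mouse, and the spread within each genotype was small beside the gap. The log2 fold change was −0.63 (SE 0.11, adjusted p = 0.0174, interval −0.87 to −0.39), which put *Nr1d1* 99th of all tested genes by p. The call was lost without *Tarsl2*+/+ mouse 583 (−0.67, adjusted p = 0.0543), without *Tarsl2*-/- mouse 588 (−0.58, adjusted p = 0.0557) and without *Tarsl2*-/- mouse 591 (−0.64, adjusted p = 0.0576). The 3′ end of *Nr1d1* overlaps *Thra*, a thyroid hormone receptor gene on the opposite strand, by 1075 bases. *Thra* was at 69.0 CPM in the *Tarsl2*+/+ and 85.6 CPM in the *Tarsl2*-/- mice on average (log2 fold change 0.31, SE 0.08, adjusted p = 0.0778), the opposite direction. Whether reads were counted by strand is not given in the sources used here, so reads in the overlap may belong to either gene.

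*Nr1d2*, the paralog of *Nr1d1* with a like role (chr14:18204054-18239127), was at 128, 139.5 and 126 CPM against 154, 165 and 132 CPM. *Tarsl2*-/- mouse 589 lay within the *Tarsl2*+/+ range, and the log2 fold change was 0.20 (SE 0.10, adjusted p = 0.308, interval −0.02 to 0.41). The intervals of *Nr1d1* and *Nr1d2* did not overlap, and their difference was not tested.

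*Dbp* encodes a PAR bZIP activator that carries the rhythm to output genes through D-boxes. *Dbp* (chr7:45705088-45710203) was at 87.6, 96.3 and 78.5 CPM in the *Tarsl2*+/+ mice (87.5 ± 8.89, SD, n = 3) and 69.1, 78.3 and 71.2 CPM in the *Tarsl2*-/- mice (72.9 ± 4.83, SD, n = 3). The ranges were parted only by the small gap between mice 595 and 591. With a log2 fold change of −0.26 (SE 0.10, adjusted p = 0.164, interval −0.48 to −0.05) it was not called. Its overlap with *Sphk2* on the opposite strand covers 737 bases, where *Sphk2* changed by −0.01 on the log2 scale (adjusted p = 0.987). For a single gene the exact two-sided permutation test of 3 against 3 mice cannot go below 0.1, the value reached by *Per1*, *Per3*, *Nr1d1* and *Dbp*.

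Levels were also compared between genes per length, as CPM per kilobase of gene length in the table. In *Tarsl2*+/+ muscle, *Dbp* led at 29.2 ± 2.97 (SD, n = 3), followed by *Nr1d2* at 24.2 ± 1.36, *Nr1d1* at 5.87, *Per1* at 5.42, *Cry1* at 4.74, *Cry2* at 2.64, *Per3* at 1.66, *Per2* at 1.55, *Clock* at 1.03 and *Arntl* at 0.502. Neighbours in that order overlapped over the mice for *Nr1d1* with *Per1*, *Per1* with *Cry1*, and *Per3* with *Per2*. In *Tarsl2*-/- muscle, *Nr1d2* at 27.7 ± 3.10 and *Dbp* at 24.4 ± 1.61 stood first with overlapping ranges. *Per1* at 8.75 stood above *Nr1d1* at 3.80 with no overlap, where the pair had overlapped in *Tarsl2*+/+ muscle. The order from *Cry1* down to *Arntl* was the same in both genotypes, and *Nr1d1* overlapped *Cry1* at 3.67.

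Differences of log2 CPM between clock genes were then taken within each mouse, which frees them from library size. They are descriptions without a test. *Dbp* minus *Arntl*, genes of opposite phase, was 4.55, 4.87 and 4.09 in the *Tarsl2*+/+ mice and 3.66, 4.35 and 4.31 in the *Tarsl2*-/- mice, ranges that overlapped. *Nr1d1* minus *Arntl* was 2.20, 2.60 and 1.91 against 1.01, 1.64 and 1.78, with no overlap and a difference of means of −0.76. *Per3* minus *Arntl* overlapped (means 2.05 and 2.18), as did *Dbp* minus *Clock* (means 2.63 and 2.25). Among single mice, *Tarsl2*+/+ mouse 584 had the highest *Dbp* and *Nr1d1* and the lowest *Arntl*, and *Tarsl2*-/- mouse 588 had the lowest *Dbp* and *Nr1d1* and the highest *Arntl*. These mice and genes were picked with their values in view. In mouse 588, *Per1* (46.2 CPM), *Per3* (17.2 CPM) and *Nr1d2* (154 CPM) lay above every *Tarsl2*+/+ mouse. *Cry2* (13.5 CPM) lay below every *Tarsl2*+/+ mouse, and *Per2* and *Cry1* lay within their range.

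Further pairs were chosen after their values were seen. *Per1* minus *Nr1d1* was 1.02, 0.65 and 0.56 against 2.07, 1.95 and 2.16. The difference of means was 1.32, with no overlap. *Nr1d2* minus *Nr1d1*, a comparison of paralogs, was 2.90, 2.81 and 2.86 against 3.80, 3.78 and 3.41, again with no overlap. *Per1* minus *Per2* overlapped between genotypes, at 2.27, 1.84 and 1.15 against 2.40, 2.21 and 2.54.

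**Figure D2:**
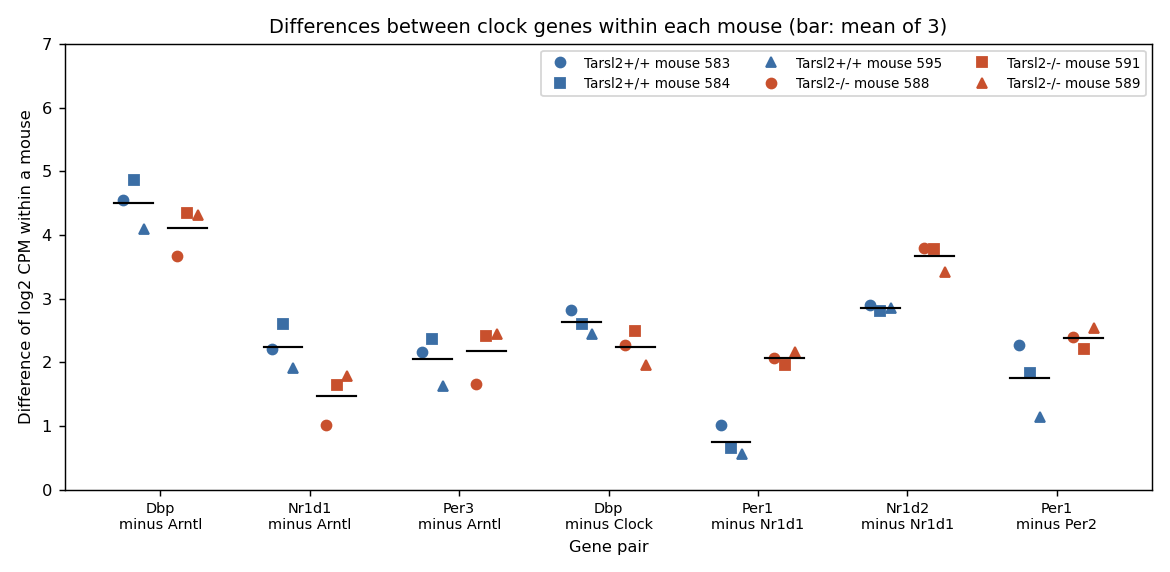
Difference of log2 CPM between pairs of clock genes within each mouse, with *Tarsl2*+/+ mice in blue, *Tarsl2*-/- mice in orange and bars at the mean of 3. *Dbp* minus *Arntl* overlaps between genotypes (4.09 to 4.87 against 3.66 to 4.35), whereas *Per1* minus *Nr1d1* (0.56 to 1.02 against 1.95 to 2.16) does not.

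Among the 39 other genes of the clock pathway that are reported here, 37 were tested and 0 were called by edgeR, again against 2.27% of all tested genes, and DESeq2 also called 0 of them. An unadjusted p under 0.05 was reached by 7 of the 37 (5 higher, 2 lower), against 19.8% of all tested genes, and 8 of the 37 did not overlap between genotypes (7 higher, 1 lower), against 24.6%. These shares were near those of all tested genes. Log2 fold changes were above 0 for 23 and below 0 for 14 of them, with a median of 0.04. *Rora*, which encodes a receptor that activates *Arntl* through the elements that REV-ERB proteins occupy, was at 44.4, 37.8 and 38.6 CPM in the *Tarsl2*+/+ mice and 49.4, 48.5 and 47.3 CPM in the *Tarsl2*-/- mice. The ranges did not overlap, and the log2 fold change of 0.27 (SE 0.09, adjusted p = 0.132, interval 0.07 to 0.46) was not called. *Arntl2*, a paralog of *Arntl* picked with its values in view, averaged 1.75 and 1.00 CPM (log2 fold change −0.78, SE 0.30, adjusted p = 0.174).

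The 6 other repressors, among them *Bhlhe40*, *Ciart* and *Nfil3*, had no call and none reached an unadjusted p under 0.05. Their median log2 fold change was −0.06, and *Bhlhe40*, which competes for E-boxes, averaged 39.3 and 40.1 CPM. *Tef* and *Hlf*, the PAR bZIP relatives of *Dbp*, were likewise uncalled, with *Tef* at 148 and 151 CPM (log2 fold change 0.03, adjusted p = 0.890). Of 18 tested kinases, ubiquitin ligases and cofactors of the clock, none was called and 3 reached an unadjusted p under 0.05. Their median was 0.05, and *Rack1*, a scaffold protein that binds BMAL1, averaged 1144 and 1147 CPM. Among 9 clock-controlled genes of other processes, none was called, 3 reached an unadjusted p under 0.05, all of them higher, and the median was 0.23. *Usp2* is in this list and in that of the kinases, ligases and cofactors, and is among the 3 in each. Such a p was reached by 19.8% of all tested genes. Of the 9, 4 did not overlap between genotypes, all higher, against 24.6% of all tested genes. The most abundant, *Tcap*, which encodes a sarcomere cap protein, averaged 1775 and 2115 CPM (log2 fold change 0.25, adjusted p = 0.278).

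**Figure D3:**
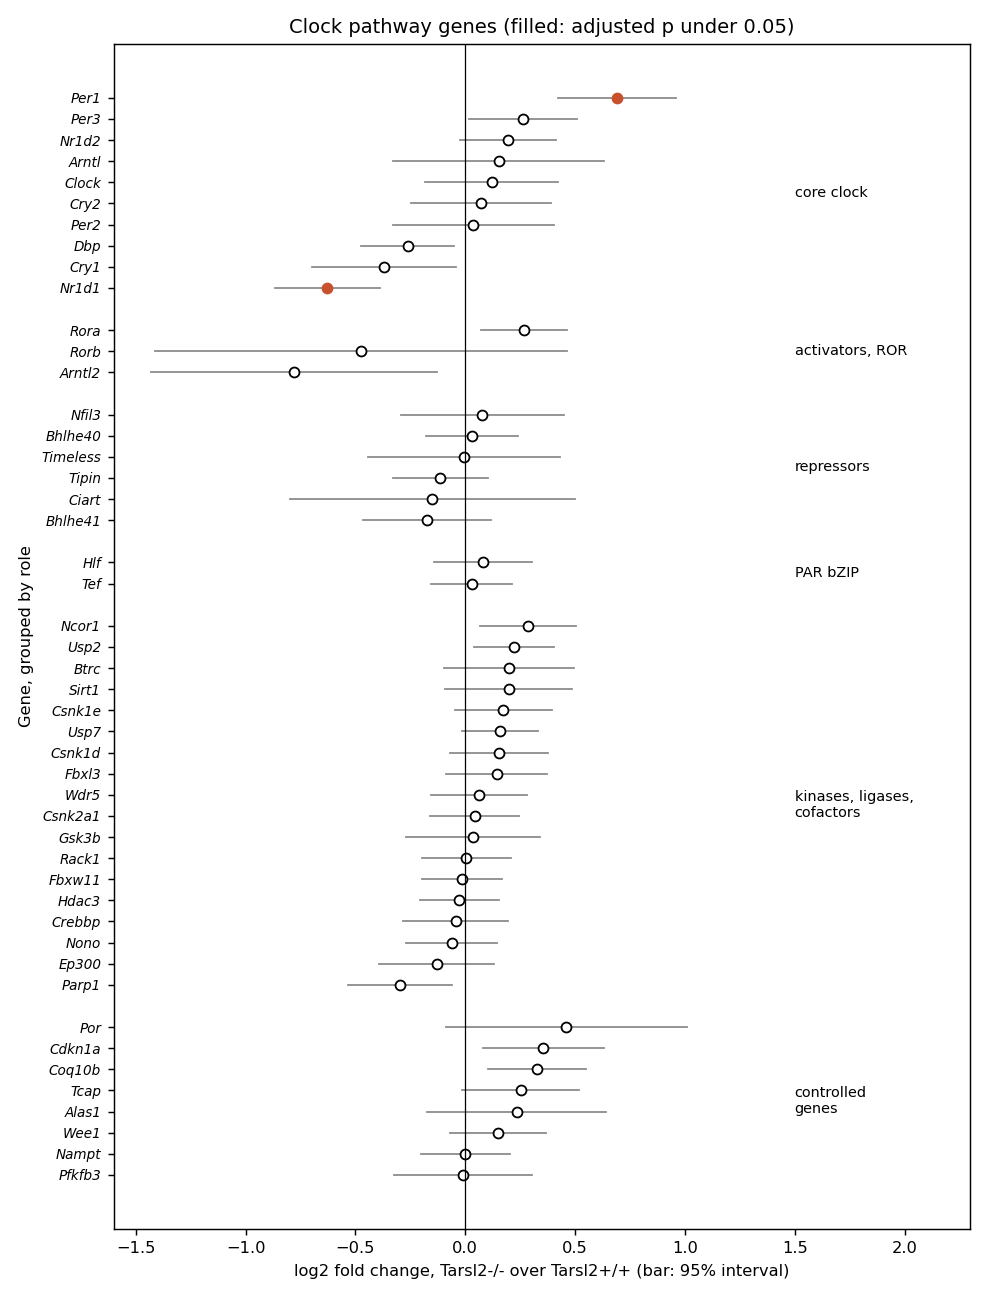
Log2 fold change of *Tarsl2*-/- over *Tarsl2*+/+ muscle for the 10 core and 37 other tested clock pathway genes, grouped by role, with 95% intervals as bars; filled points have an adjusted p under 0.05. The filled points are *Per1* at 0.69 and *Nr1d1* at −0.63, and most other intervals include 0.

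Genes that respond to signals known to set peripheral clocks were read in the same fit. The glucocorticoid list held 6 genes that the hormone is known to induce and *Nr3c1*, the gene of its receptor, and *Klf9*, a transcription factor gene, was the 1 of these 7 called, against 2.27% of all tested genes. *Klf9* was at 55.1, 57.1 and 49.6 CPM against 72.0, 94.96 and 68.2 CPM, with no overlap and a log2 fold change of 0.54 (SE 0.12, adjusted p = 0.0468). Its call was lost without any of 4 mice (583, 595, 588 or 591), with limma-voom (adjusted p = 0.0513) and with upper quartile scaling (adjusted p = 0.0573). The median of the 7 genes was −0.06, and the most abundant, *Tsc22d3*, was at 385 and 337 CPM (log2 fold change −0.19, adjusted p = 0.346). Neither cold-inducible gene was called, although both had an unadjusted p under 0.05 and did not overlap, as held for 19.8% and 24.6% of all tested genes. *Rbm3*, the more abundant, was at 180.0 and 215 CPM on average (log2 fold change 0.26, adjusted p = 0.157). None of 6 heat shock genes was called (median −0.09), and *Hspa8* was at 953 and 952 CPM. An unadjusted p under 0.05 was reached by 3 of the 6 (1 higher, 2 lower), against 19.8% of all tested genes. No overlap was found for 2 of the 6, both lower, against 24.6%. None of 6 immediate early genes was called (median −0.38), and *Crem* was at 36.5 and 29.1 CPM (log2 fold change −0.33, adjusted p = 0.105). An unadjusted p under 0.05 was reached by 3 of these 6 (1 higher, 2 lower), and 2 did not overlap, both lower. The shares of all tested genes were again 19.8% and 24.6%.

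**Figure D4:**
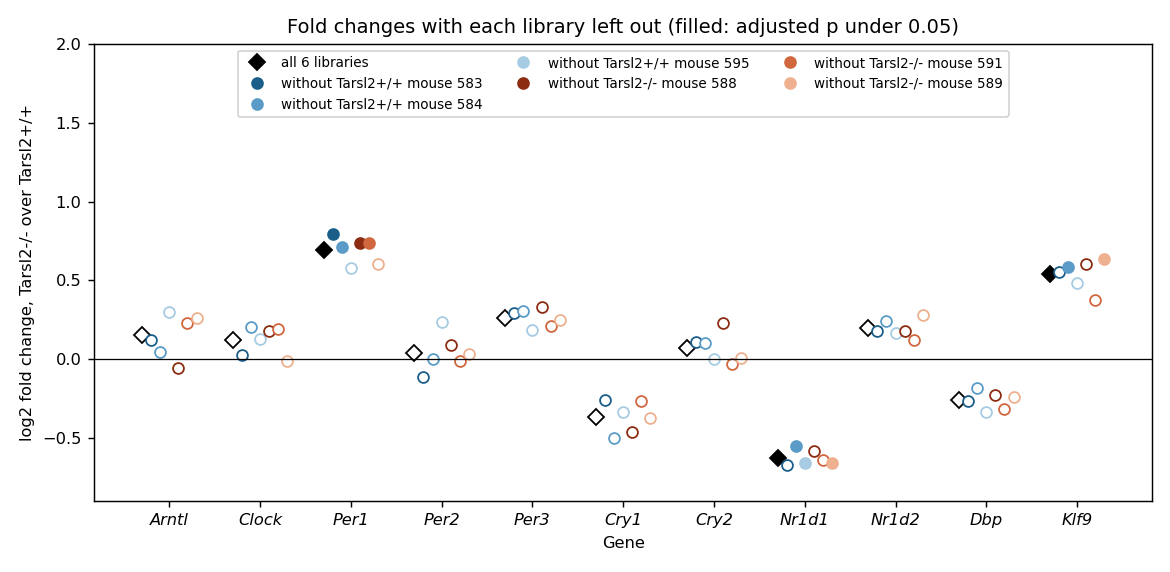
Log2 fold change of the clock genes and *Klf9* with all 6 libraries (diamonds) and with each library left out in turn (circles); filled symbols have an adjusted p under 0.05. *Per1* stays between 0.58 and 0.79 and *Nr1d1* between −0.67 and −0.55, with open circles for the lost calls, whereas *Arntl*, *Clock*, *Per2* and *Cry2* lie on both sides of 0.

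Markers of cell types moved between the genotypes in the same libraries. Of 8 tested leukocyte markers, 5 were called lower in *Tarsl2*-/- muscle, against 1.37% of all tested genes, and all 8 were lower without overlap, where 24.6% of all tested genes did not overlap in either direction. The sum over all 9 listed leukocyte markers, the untested *Cd79a* included, was 1289 to 1469 CPM in the *Tarsl2*+/+ and 724 to 934 CPM in the *Tarsl2*-/- mice. Most of it was *Lyz2*, at 823 to 965 and 436 to 567 CPM. Of 8 fast or general muscle fibre markers, 3 were called, all higher (*Ckm*, *Myh1* and *Actn3*), against 0.896% of all tested genes. The sum was 50936 to 54252 against 56547 to 66091 CPM. Log2 fold changes were above 0 for 6 of the 8 and below 0 for 2, *Mb* (−0.11) and *Myh4* (−0.03), whose genotypes overlapped. None of 7 slow fibre markers was called, with sums of 787 to 1423 against 1089 to 1728 CPM, and none of 5 erythrocyte markers was called, with sums of 4747 to 10387 against 4165 to 4534 CPM. All 7 slow fibre markers had a log2 fold change above 0, 3 of them at an unadjusted p under 0.05. All 5 erythrocyte markers were below 0 (median −0.85), 4 of them at such a p, against 19.8% of all tested genes. Of these 5, 2 did not overlap, against 24.6%. Of 5 endothelial markers, *Cdh5* was called lower, again against 1.37% (sums of 115 to 141 against 92.8 to 117 CPM). No adipocyte marker (sums of 1119 to 1813 against 1162 to 3482 CPM), Schwann cell marker (176 to 192 against 129.7 to 225 CPM) or fibroblast marker (8433 to 9957 against 7167 to 8337 CPM) was called, with 5 tested for each. Of the adipocyte markers, 4 had a log2 fold change above 0 and *Lep* had −1.01. *Tarsl2*-/- mouse 589 stood apart in *Cfd* (2722 CPM, against 903 and 946 in mice 588 and 591) and *Mbp* (60.7 CPM, against 6.75 and 12.6). In *Pmp22* mouse 589 lay between mice 588 and 591. All 5 fibroblast markers had a log2 fold change below 0 (median −0.23), with 1 at an unadjusted p under 0.05 and 1 without overlap, near the shares of all tested genes. The part of cell makeup in the clock gene values was not tested, and in whole muscle fewer cells of a type and less RNA per cell cannot be told apart.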

How the data were processed

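Muscle RNA of 3 *Tarsl2*+/+ and 3 *Tarsl2*-/- mice was measured. The authors deposited raw read counts per gene in 1 table with gene lengths and coordinates. The study's methods name HISAT2 and mm10, whereas the submitters' processing notes name Bowtie 0.12.2 and mm8. The table's genes follow mm10: 95% of 52489 shared Ensembl identifiers have the coordinates of GENCODE vM21, and the lengths of the 10 clock genes equal its exon unions. Rows for transcripts without an Ensembl identifier took 0.114 to 0.128% of counts. The methods name a stranded kit and the labels an unstranded kit.

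Genotypes were compared with edgeR 4.0.16 in R 4.3.3 (TMM, filterByExpr with a minimum count of 10 and minimum total of 15, quasi-likelihood test, genotype only) and Benjamini-Hochberg adjustment over all 15075 tested genes, of which 135 were higher and 207 lower. The study's methods name DESeq2, which served as an alternative (version 1.42.0) beside limma-voom (3.58.1), other scalings, other filters and leaving out each library. Within-mouse differences used log2 CPM with a prior count of 2. A level of 3 counts corresponds to 0.146 to 0.187 CPM. Intervals are 95% intervals of the fit. Between mice of a genotype, counts differed by a mean chi-square per gene of 12.0 to 26.0 (1 would be sampling noise). Genes with many counts weigh most in this mean, so it does not describe a typical gene. The p-values weigh the genotype difference against the spread between these mice within a genotype. The labels number the mice but name no batch, and a batch that ran along with genotype could not be told apart from it. The title of *Tarsl2*-/- mouse 589 holds a letter T that the titles of the other *Tarsl2*-/- mice lack, and its meaning is not given. The test was checked on simulated data.

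The clock genes, pathway lists and marker lists were chosen with earlier results of these data known. Named were all 10 clock genes, *Tarsl2*, and the called genes of each pathway list or otherwise its most abundant gene. Genes outside all lists that were most alike to *Dbp* and *Arntl* were named too. Overlapping neighbours and examples of marker lists were picked later, with values in view. For the pathway lists, 1 gene is not reported here and is left out of their counts.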

Additional observations from a re-analysis of the deposited data

How the results depend on the processing

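*Per1* and *Nr1d1* were the clock genes called in each of 6 alternatives that kept all libraries (DESeq2, limma-voom, RLE or upper quartile scaling, no filter, at least 10 counts per library), with log2 fold changes of 0.67 to 0.70 and −0.65 to −0.63. Leaving out each library left 1 to 2 clock genes called (0 to 1 higher, 0 to 1 lower), with *Per1* called in 4 of 6 fits (0.58 to 0.79) and *Nr1d1* in 3 of 6 (−0.67 to −0.55). The sign reversed for uncalled genes only. *Per2* ran from −0.11 (without *Tarsl2*+/+ mouse 583; −0.01 without *Tarsl2*-/- mouse 591) to 0.24, *Arntl* from −0.060 (without mouse 588) to 0.30, *Cry2* from −0.032 (without mouse 591) to 0.23 and *Clock* from −0.013 (without mouse 589) to 0.21. Fewer samples entered these fits, and the cause was not tested further. *Per3* (0.19 to 0.33), *Cry1* (−0.50 to −0.26), *Nr1d2* (0.12 to 0.28) and *Dbp* (−0.34 to −0.19) kept their sign. Over the whole table, DESeq2 called 671 genes (300 higher, 371 lower), no filter on low counts 1437 (611 higher, 826 lower) and leaving out each library 81 to 625 (31 to 242 higher, 50 to 383 lower), the cause not tested. With no filter, 1 other clock pathway gene was called (*Por*), and 0 in the fits that left out a library (0 to 0) or used another alternative. Within-mouse differences of means ran, over the libraries left out, from −0.61 to −0.18 for *Dbp* minus *Arntl*, −0.92 to −0.53 for *Nr1d1* minus *Arntl*, −0.09 to 0.38 for *Per3* minus *Arntl* and −0.51 to −0.24 for *Dbp* minus *Clock*. No paired analysis was possible because the labels give no litter or other pairing of mice across the genotypes. The counts behind *Arntl* (56 to 96 a library) limit what could be detected for it.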

Other observations

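Tested genes with an Ensembl identifier were searched, leaving out all genes of the clock, pathway and marker lists. Among these, the log2 CPM of *Igfbp5* (Pearson r 0.988), *Aagab* (0.986) and *Rnf122* (0.984) followed *Dbp* most closely over the 6 libraries. For *Arntl* the closest were *Zfp747* (0.991), *Gnl3* (0.990) and *Slc4a8* (0.983). With so many genes to choose from and 6 libraries that share their genotype labels, these are descriptions without a test. *Igfbp5*, which encodes a binding protein of insulin-like growth factors, was at 296, 327 and 252 CPM in the *Tarsl2*+/+ mice and 217, 240.4 and 214 CPM in the *Tarsl2*-/- mice, in the same order over the mice as *Dbp* but for the exchange of mice 588 and 589.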
